A study of Caenorhabditis elegans with 2 samples.

Results

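A row of nuclear hormone receptor genes begins with nhr-179 and goes on through nhr-117, then nhr-110, then nhr-237, to nhr-238 near the left end of chromosome V of Caenorhabditis elegans, and all 5 are transcribed from the minus strand. They are 5 of 46926 annotated genes and 5 of 269 protein-coding nuclear genes with an nhr name. These members were chosen by the signal of earlier results on the same call lists, in which 10 thresholded peaks crowded here, so their high values are a description and carry no test. ChIP-seq, which sequences DNA recovered with a chromatin protein, had been run against ZK546.5 on 2 biological replicates of 1 group. The animals were third-stage (L3) larvae of strain OP231, of both sexes pooled and of unknown age. All carried the unc-119(ed3) allele on chromosome III and the transgene wgIs231, which adds GFP-FLAG to the C-terminal end of ZK546.5. Both replicates came from this single strain and from whole animals, so the cells in which a signal arose were not resolved. Replicate 1, replicate 2 and the pooled data each had 30000 calls on build ce11, and the submitters' thresholded set held 261 peaks, 235 of them nuclear and 27 on chromosome V. Sequencing depth is unknown because no read counts were in the files. The signal of the control over this stretch was not analysed here.

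Nuclear hormone receptors are transcription factors with a zinc-finger domain that binds DNA and a second domain that binds small lipophilic ligands. The family is greatly expanded in C. elegans, where many members descend from an HNF4-like ancestor and lie in groups of neighbouring genes on chromosome V. Some worm members are known to adjust fat metabolism, responses to diet or detoxification. No role is given here for the 5 members themselves.

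Each member held the zinc-finger pattern of this family (4 cysteines, with 2, 13 and 2 residues between neighbours) in its translated coding sequence, as did 211 of the 269 nhr genes. The first residue of the pattern was number 31 of 440 in nhr-179, 34 of 477 in nhr-117, 26 of 424 in nhr-110, 10 of 345 in nhr-237 and 8 of 333 in nhr-238. By identity over the shorter protein, nhr-179, nhr-117 and nhr-110 resembled each other most, with 50.5% between nhr-179 and nhr-117, 51.4% between nhr-117 and nhr-110, and 48.3% between nhr-179 and nhr-110. The pair nhr-237 and nhr-238 shared 36.6%, less than each shared with its closest relative, nhr-42 for nhr-237 (40.6%) and nhr-176 for nhr-238 (37.8%), both outside the run. All other pairs among the 5 shared 23.8% to 30.7%, close to the medians of 24.2% to 25.3% between a member and the rest of the family. For nhr-117, too, the closest protein was outside the run, that of nhr-177 (55.1%), which lies left of the run, beyond srbc-41, on the other strand.

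The sequences under the summits at the 5 gene starts were poor in G and C, and those of nhr-179 and nhr-237 held runs of A or T. They are shown because they differ in composition from most other thresholded peaks, of which the summit upstream of sec-61.G, the second strongest of all nuclear peaks by rank, is added for contrast. Each runs 5′ to 3′ on the strand of the named gene, is centred on the pooled summit and comes from the RefSeq copy of the ce11 assembly. That of nhr-238 stops where its annotated 5′ end begins, which leaves 66 bp that are not centred on the summit. Capitals mark runs of 6 or more A or T and, in sec-61.G, the overlapping words ACGCAG and GACGCA on the opposite strand.
nhr-179 (chrV:1618915-1619015, minus strand): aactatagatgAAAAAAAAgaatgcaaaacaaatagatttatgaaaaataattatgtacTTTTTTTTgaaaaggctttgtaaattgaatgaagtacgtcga
nhr-117 (chrV:1621835-1621935, minus strand): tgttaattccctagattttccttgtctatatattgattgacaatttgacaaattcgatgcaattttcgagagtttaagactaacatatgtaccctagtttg
nhr-110 (chrV:1624524-1624624, minus strand): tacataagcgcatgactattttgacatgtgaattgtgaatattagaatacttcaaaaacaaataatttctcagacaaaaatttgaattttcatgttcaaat
nhr-237 (chrV:1626927-1627027, minus strand): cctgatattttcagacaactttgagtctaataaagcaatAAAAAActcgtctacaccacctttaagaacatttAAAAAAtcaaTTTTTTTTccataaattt
nhr-238 (chrV:1629433-1629498, minus strand): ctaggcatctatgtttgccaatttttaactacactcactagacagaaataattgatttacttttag
sec-61.G (chrV:10897325-10897425, minus strand): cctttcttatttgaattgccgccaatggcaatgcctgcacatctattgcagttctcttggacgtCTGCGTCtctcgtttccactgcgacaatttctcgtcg

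GC content in these windows was 22.8% at nhr-179, 30.7% at nhr-117, 24.8% at nhr-110 and 25.7% at nhr-237. It was 30.3% in the 66 bp of nhr-238, where 200 bp centred on the summit had 38.5%. The window of sec-61.G had 48.5%, but it is a single peak chosen after its values were seen. In 200 bp at the summit, the strongest nuclear peak, on chromosome I, had 34.5%. The mean over the 225 other nuclear thresholded peaks was 42.7%. The windows of nhr-179 and nhr-237 held runs of 6 or more A or T, and those of the other 3 members held none.

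The thresholded peaks around the run spanned a stretch of 11613 bp, from 1618810 to 1630422 on chromosome V, which did not coincide with the run of genes. The run itself spans 13710 bp, from 1615723 to 1629432. At the left the stretch began 51 bp inside the annotated 5′ end of nhr-179 and left the rest of that gene without a pooled call. At the right it passed nhr-238 and ended inside Y46H3D.8, a protein-coding gene outside the family. In this stretch, called the block below, the pooled list had 23 calls with a median signal of 48.2, against a median of 17.5 over all nuclear calls. The window of the run with 5000 bp on each side held 25 pooled calls, of which 10 were in the thresholded set. Left of the block there was 1 pooled call, with a signal of 13.7 and rank 27090, and right of it 1, with a signal of 17.7 and rank 14468.

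**Figure D1:**
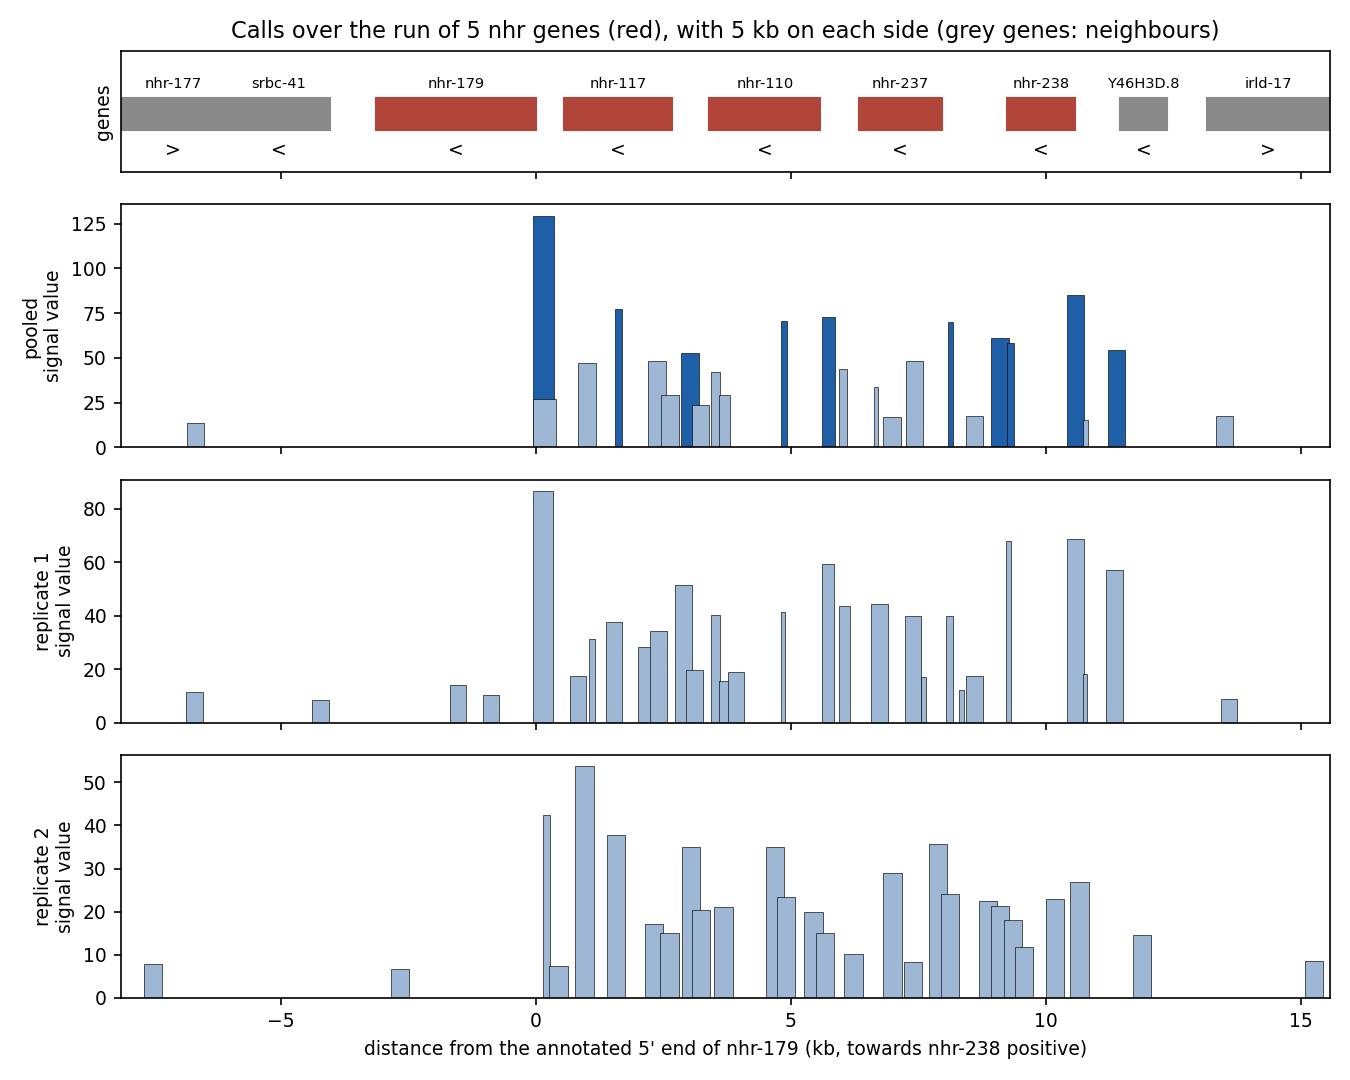
Calls along the run, with signal value (vertical axis, linear) against distance from the annotated 5′ end of nhr-179 in kb. Bars span each call's interval in the pooled list (top; dark blue marks the thresholded peaks), replicate 1 and replicate 2; gene boxes above are red for the 5 members and grey for neighbours, with < for the minus and > for the plus strand. Strong calls begin near the 5′ end of nhr-179 and reach past nhr-238 in the pooled list and replicate 1, but end at its start in replicate 2, and the body of nhr-179 holds only weak replicate calls, of 13.9 or less.

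The block was drawn from the pooled thresholded peaks, and the replicates matched its limits in part. Replicate 1 had strong calls up to both limits, whereas the last strong call of replicate 2 ended at 1629700, at the start of nhr-238, short of the right limit. Replicate 1 had 24 calls in the block, with a median signal of 38.8, and 15 of them ranked among the strongest 261 calls of that list. Replicate 2 had 24 calls, with a median of 21.9, and 6 of them ranked that high. Outside the block but within the window, no call of either replicate reached rank 1000. Replicate 1 had 4 calls to the left, with signals from 8.59 to 13.9, and 1 to the right, with 8.95. Replicate 2 had 2 calls to the left, with 6.62 and 7.79, and 2 to the right, with 14.5 and 8.52. The list medians over nuclear calls were 11.6 in replicate 1 and 8.69 in replicate 2, and most calls inside the block lay above them. The calls beside the block lay below them, except that of 13.9 in replicate 1 and that of 14.5 in replicate 2. The latter, of rank 2885, lay 142 bp beyond the right limit. In the block, pooled calls covered 46.6% of bases, replicate 1 calls 47.7% and replicate 2 calls 63.4%. Over the nuclear genome these shares were 10.1%, 9.56% and 10.4%.

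Every member had a thresholded summit within 500 bp of its annotated 5′ end, as did 244 of all 19985 protein-coding genes (1.22%). Because the members were picked for these peaks, nothing is read from that count. All 5 also had a pooled call there, which 31.2% of protein-coding genes had, and a call in each replicate list, which 31.3% had in replicate 1 and 31.2% in replicate 2. A call among the strongest 261 lay at all 5 starts in replicate 1, against 0.976% of protein-coding genes. In replicate 2 it lay at the starts of nhr-179, nhr-117 and nhr-237 but not of nhr-110 and nhr-238, against 1.19% of genes. The same values chose the members, and these shares are given for scale.

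The start of nhr-179 (WBGene00017512, 1615723 to 1618860) carried the strongest peak of the block. Its pooled summit, at 1618965 in intergenic sequence 105 bp upstream, had a signal of 129 and rank 85. The strongest call there had a signal of 86.6 in replicate 1 (rank 61) and 42.4 in replicate 2 (rank 164), which were 7.44 and 4.87 times the median of nuclear calls of each list. It was the highest of the 5 starts in both replicates. The annotated 5′ end used here, however, belongs to 1 of 16 annotated transcripts, and the next most upstream transcript begins at 1618072. Against the median 5′ end of the 16 transcripts, 1617942, nhr-179 had no thresholded summit within 500 bp. Inside the gene, pooled calls covered 1.63% of bases, replicate 1 calls 22.4% and replicate 2 calls 11.3%. Replicate 1 had 2 weak calls there, of 13.9 and 10.3, both in annotated 5′ untranslated exons, and replicate 2 had 1 of 6.62 in an intron. The calls inside nhr-179 were thus weak ones, and its strong calls lay upstream.

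The next gene, nhr-117 (WBGene00003707, 1619415 to 1621520), was marked both over its coding sequence and upstream. Its thresholded start peak, at 1621885, lay 365 bp upstream with a signal of 52.7 and rank 255, the lowest of the 10. At this start the strongest call had a signal of 51.7 in replicate 1 (rank 100) and 35.0 in replicate 2 (rank 221). A second thresholded peak lay in a coding exon at 1620471, with a signal of 77.6 and rank 154. The calls nearest to it had a signal of 37.8 in replicate 1 (rank 153) and 37.7 in replicate 2 (rank 200), a ratio of 1.00. Further in the gene body, replicate 2 had its strongest call of the block, 53.7 (rank 118), in a coding exon. The nearest replicate 1 call had a signal of 31.1 (rank 223). The pooled call there had a signal of 47.4 and rank 310, below the thresholded set. Pooled calls covered 44.4% of the gene.

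At nhr-110 (WBGene00003700, 1622264 to 1624440) the start was strong in replicate 1 and much less so in replicate 2. The thresholded start peak, at 1624574 and 134 bp upstream, had a signal of 73.0 and rank 167. The strongest call at this start had a signal of 59.4 in replicate 1 (rank 93), but 19.8 in replicate 2 (rank 811), the lowest start value of the 5 in that replicate. That replicate 2 call lay in a coding exon, 135 bp inside the gene, and its call upstream had a signal of 15.1 (rank 2435). The second thresholded peak of the gene, at 1623713 in a coding exon, had a signal of 70.7 and rank 174. Over the body, replicate 1 had 4 calls with signals from 15.7 to 41.3, and replicate 2 had 3 with signals from 21.1 to 35.1. A pooled call in the 3′ untranslated region, with a signal of 42.0 and rank 396, stayed below the thresholded set. Pooled calls covered 22.6% of nhr-110.

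No thresholded summit lay inside nhr-237 (WBGene00021610, 1625189 to 1626820), although pooled calls covered 47.7% of it, the highest share of the 5. Its strongest pooled body call had a signal of 48.5 and rank 297. In the body the strongest replicate 1 call had a signal of 44.5 (rank 114) and the strongest replicate 2 call 28.9 (rank 309). The start peak, at 1626977 and 157 bp upstream, had a pooled signal of 70.3 and rank 175. The strongest call at the start had a signal of 39.9 in replicate 1 (rank 134) and 35.6 in replicate 2 (rank 216). The replicate 1 call lay upstream, near the pooled summit, whereas the replicate 2 call lay 68 bp inside the gene. Upstream, replicate 2 had a call of 24.0 (rank 445).

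The last gene, nhr-238 (WBGene00021611, 1628105 to 1629432), had peaks at both ends. At its start the summit lay 16 bp upstream, at 1629448, with a pooled signal of 85.1 and rank 135. The strongest call at the start had a signal of 68.7 in replicate 1 (rank 75) and 27.0 in replicate 2 (rank 357). Near the end of the coding sequence a thresholded summit at 1628201 had a signal of 58.4 and rank 221. Another, at 1627964 in the gap towards nhr-237, had a signal of 61.0 and rank 209. These summits were 237 bp apart, and 1 call of replicate 1, with a signal of 68.1 (rank 76), was the nearest to both, so they are not independent there. Replicate 1 had no summit inside the gene beyond 500 bp from its start, and replicate 2 had 2, with 18.0 and 11.7.

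**Figure D2:**
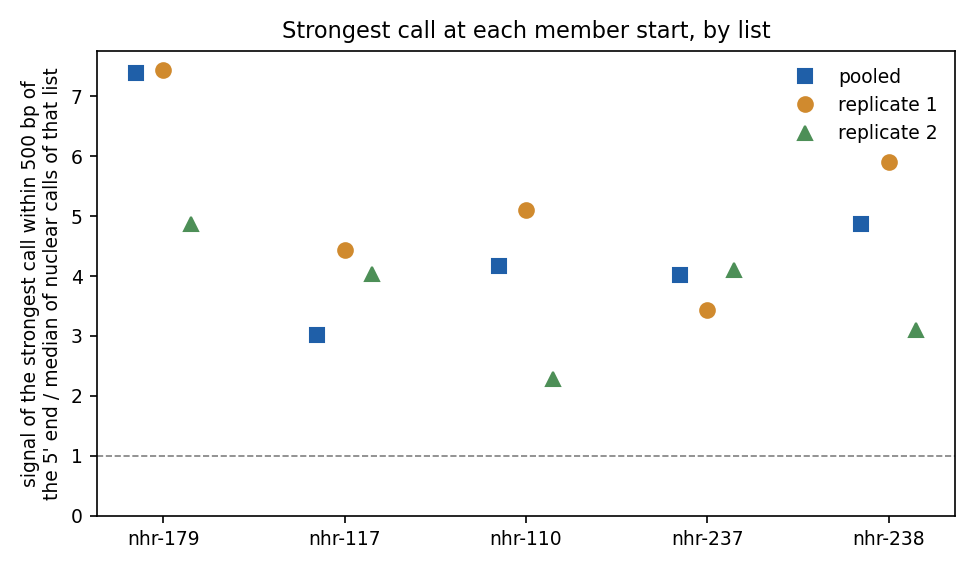
Strongest call within 500 bp of each member's annotated 5′ end, as signal divided by the median signal of nuclear calls of the same list (vertical axis), for the pooled list (squares), replicate 1 (circles) and replicate 2 (triangles). The dashed line marks the list median. All 15 values lie above it, from 2.28 for nhr-110 in replicate 2 to 7.44 for nhr-179 in replicate 1.

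The order of the other 4 starts was not stable. After nhr-179 came nhr-238, nhr-110, nhr-117 and nhr-237 in replicate 1, but nhr-237, nhr-117, nhr-238 and nhr-110 in replicate 2. With 2 replicates that order these 4 starts differently, no order among them can be given.

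Of the gaps between members, that from nhr-237 to nhr-238 (1284 bp) was the only one with a thresholded summit more than 500 bp from any member's 5′ end. The gap from nhr-117 to nhr-110 (743 bp) had a pooled call of 23.8 (rank 4801) beyond that distance. In the gap from nhr-110 to nhr-237 (748 bp), replicate 1 had a call of 43.8 (rank 117) and replicate 2 one of 10.2 (rank 10054). The tenth thresholded peak lay outside the run, at 1630251, between nhr-238 and Y46H3D.8, with a pooled signal of 54.2 and rank 246. Replicate 1 had a call of 57.2 there (rank 95), and replicate 2 had no call within 200 bp. The first replicate 2 call to the right of the block lay in a coding exon of Y46H3D.8, with 14.5 (rank 2885).

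None of the 4 other protein-coding genes of the window had a thresholded summit at its start or inside it. Those genes are nhr-177 and srbc-41 (a predicted chemoreceptor) on the left, and Y46H3D.8 and irld-17 on the right. The strongest call at the start of nhr-177 had a signal of 17.4 in the pooled list (rank 15155) and 10.3 in replicate 2 (rank 9748), and there was none in replicate 1. At srbc-41, whose 5′ end faces the run, replicate 1 had a call of 8.59 (rank 29203) and the other lists none. At irld-17 the pooled call had a signal of 17.7.

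The peaks of the block were stronger in replicate 1 than in replicate 2, relative to other peaks. Matched within 200 bp of the pooled summit, 9 of the 10 peaks had a call in both lists. The ratio of replicate 1 to replicate 2 signal had a median of 2.04. It ran from 0.561, at the nhr-117 start, where the nearest replicate 1 call (19.7) was not its strongest there, to 3.92, at the nhr-110 start. For the 223 other nuclear thresholded peaks with both calls the median was 0.787, with quartiles of 0.608 and 1.00, and 217 of them lay below 2.04. The highest of the others was 5.15. Since the scale of each list is its own, only the contrast between the block and the other peaks can be read. The block's median was 2.59 times that of the others. The matched calls of 9 of the 10 peaks were among the strongest 261 in replicate 1, against 3 in replicate 2. The peaks at 1627964 and 1628201 were matched to the same replicate 1 call. It therefore entered this count and the ratios (3.21 and 3.77) for both peaks.

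**Figure D3:**
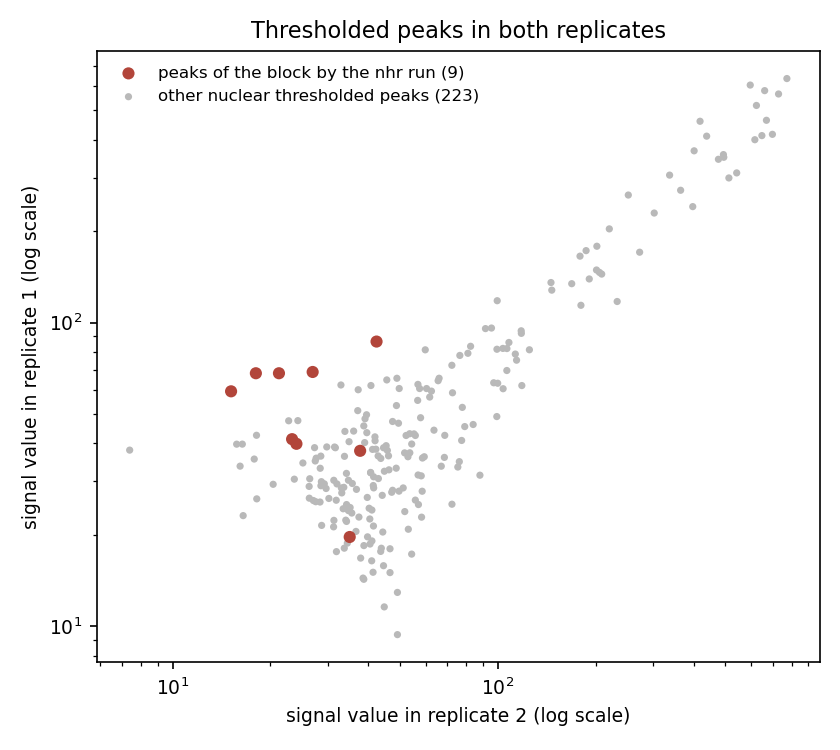
Signal value in replicate 1 (vertical, log scale) against replicate 2 (horizontal, log scale) at thresholded peaks that both replicates called. Red points are the 9 peaks of the block and grey points the 223 other nuclear peaks. The red points have ratios from 0.561 to 3.92, with a median of 2.04, and those of the peaks at 1627964 and 1628201 share the same replicate 1 call. The grey points have a median of 0.787, and 1 of them, at 5.15, lies above every red point.

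Peaks were crowded here as nowhere else among the nuclear thresholded peaks. Peaks outside the nuclear chromosomes were not counted in these windows. Windows of 11613 bp were started at each of the 225 other nuclear thresholded peaks. They held 1 summit in 187 cases, 2 in 35 and 3 in 3. The block held 10, but this length is the block's own extent, so it takes in all 10 by construction. With windows of 5000 bp the contrast was smaller. The fullest window touching the run then held 5 thresholded summits, and the fullest elsewhere held 3. Neighbouring summits of the block were 237 to 2403 bp apart, with a median of 1247 bp. Among pooled calls of rank 1000 or better, a window of 11613 bp held up to 16 at the run and up to 6 elsewhere. The placing of these peaks also differed. Summits lay in coding exons at 3 of 10 peaks, against 3 of 225 other nuclear peaks (1.33%), and no more than 500 bp from the 5′ end of a protein-coding gene at 5 of 10, against 161 of 225 (71.6%). These are counts over neighbouring peaks of 1 region and were not tested.

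The intervals themselves were unusual. In the pooled list 344 bp was the commonest width, and 12 of the 23 calls of the block had another width, from 90 to 436 bp, against 52 of 29951 nuclear calls elsewhere (0.174%). All 52 of those belonged to the thresholded set, whereas 6 of the 12 in the block did not. Among thresholded peaks within the block's range of signal, 6 of 10 in the block had another width, compared with 2 of 159 elsewhere (1.26%). Replicate 1 behaved likewise, with 12 of 24 calls in the block against 0.124% of nuclear calls elsewhere. In replicate 2 it was 1 of 24, the call at the nhr-179 start, against 0.167%.

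In base composition the peaks of the block resembled weak calls more than thresholded ones. Mean GC content of 200 bp at the summit was 30.2% ± 4.13 (SD, 10 peaks), against 42.7% ± 7.63 (SD, 225 peaks) at the other nuclear thresholded peaks and 31.4% ± 6.87 (SD, 29710 calls) at nuclear pooled calls that overlapped no thresholded peak. The lowest value was 24.0%, at the nhr-179 start, and the highest 38.5%, at the nhr-238 start. Restricting the others to the same range of signal gave 42.0% ± 7.61 (SD, 159 peaks), and the 17 others on chromosome V gave 44.9% ± 7.77 (SD). The whole block had a GC content of 33.6%, near the 35.4% of the nuclear genome.

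**Figure D4:**
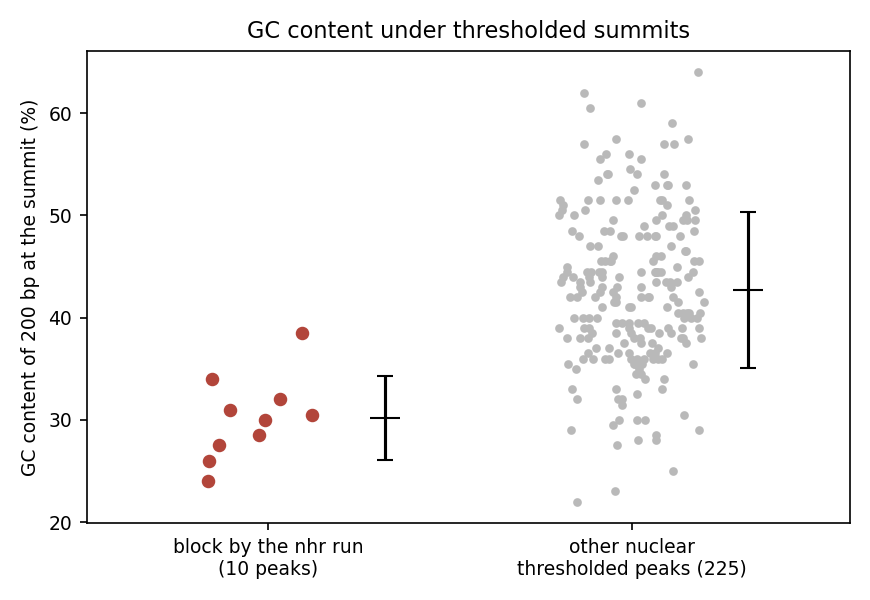
GC content in percent of the 200 bp centred on each thresholded summit (vertical axis), for the 10 peaks of the block (red, left) and 225 other nuclear peaks (grey, right). Horizontal ticks and bars give mean and SD: 30.2% ± 4.13 for the block and 42.7% ± 7.63 for the others.

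Words of 6 bases, taken from earlier results on the whole thresholded set, were missing around the summits of the block. They were counted on either strand in 100 bp around the summit, and all 4 were found at 0 of 10 summits of the block. The word ACGCAG was present at 48 of 225 other nuclear thresholded peaks. The word GACGCA, which overlaps it in 5 bases, was present at 45. The word CGAGAC was present at 48 and the word ACCGTA at 44. At least 1 of the 4 occurred at 119 of the 225 (52.9%). Among the 159 in the same range of signal, 75 (47.2%) had at least 1. Over nuclear pooled calls that overlapped no thresholded peak, the shares of the 4 words, in that order, were 1.64%, 1.67%, 2.06% and 2.35%. A run of 6 A or 6 T was present at 6 of 10 summits of the block, compared with 48 of 225 (21.3%) of the other thresholded peaks and 57.9% of the weaker calls, as seen at nhr-179 and nhr-237 in the printed sequences. Because the 4 words were taken from this thresholded set, their shares at its other peaks are no independent reference. Beside the low shares of the weaker calls, 0 of 10 does not stand out. A missing word says only that these letters are not in this window.

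Most of the block was unique sequence. Words of 36 bases occurred once in the genome at 97.8% of positions in the block and at 99.8% in the run, and at every position in 9 of the 10 thresholded intervals. In the tenth, beside Y46H3D.8, the share was 89.8%. By blastn, 8 of the 10 intervals had no other match of 50 bp or more in the genome. The interval at the nhr-237 start had 603 such matches, with identities up to 94.9%, of which 1 was in the run. The interval beside Y46H3D.8 had 265, up to 98.6%. The start peaks of the other 4 members were among the 8 without a match, and the part of these repeats in the calls was not tested.

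Other runs of nhr genes did not show such calls. The annotation has 15 other runs of 3 or more neighbouring nhr genes, with 76 genes in all and up to 9 in a run, and 11 of these runs lie on 1 strand, as the present one does. None held a thresholded summit, against 8 inside the run from nhr-179 to nhr-238. Pooled calls numbered 1.46 per kb in that run, compared with 0.112 to 0.459 per kb in the others (median 0.374). They covered 35.2% of its bases, against 2.92% to 15.4% (median 12.9%), and the highest pooled signal in any other run was 33.5. The run was singled out for its peaks, so these values are a description.

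**Figure D5:**
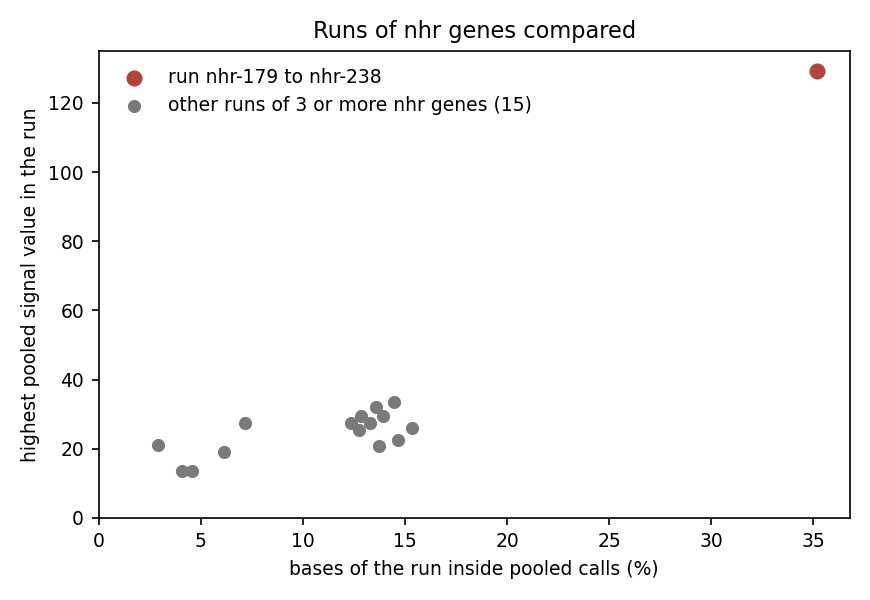
Highest pooled signal value (vertical axis) against the percentage of bases inside pooled calls (horizontal axis) for runs of 3 or more neighbouring nhr genes. The red point is the run from nhr-179 to nhr-238, at 129 and 35.2%, and the 15 grey points are other runs, all at 33.5 or less and 15.4% or less.

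Among the 264 nhr genes outside the run, none had a thresholded summit within 500 bp of its 5′ end, and 87 (33.0%) had a pooled one, close to the 31.2% of all protein-coding genes. The median of the strongest pooled signals at those 87 starts was 17.3. The best was at nhr-47, with a signal of 48.4 and rank 301, followed by nhr-106 with 33.5 (rank 929). Neither replicate had a call among its strongest 261 at any of the 264 starts.

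Genes of a like pattern, by the number of thresholded summits between start and end, were few. Outside the run 34 nuclear protein-coding genes had such a summit, and 33 of them had 1. The exception was ppfr-1, with 2 summits in 25884 bp. Next by summed signal came ash-2 (760), pqn-51 (193), K11D12.14 (193, by the peak it shares with pqn-51) and Y41G9A.17 (190), with 1 summit each. Of the members, nhr-117, nhr-110 and nhr-238 had 1 summit each inside the gene, and nhr-179 and nhr-237 none.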

How the data were processed

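Peak lists were analysed for 2 biological replicates of 1 group. Per the deposited file notes, the authors made each replicate list from that replicate's alignments and a control file, the pooled list from both replicates, and the thresholded set from these lists by the irreproducible discovery rate. The sources used here give no aligner, peak caller or threshold. Signal, as deposited, is the caller's value per call, on a scale of its own in each list, so it was compared within a list, as a rank, or relative to other peaks. The narrowPeak q-value column has no stated scale, was kept as a deposited score and gives no value in the text.

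Calls were counted by summit, 1-based on ce11, with genes of Ensembl release 115. Coding sequences were translated and aligned globally (BLOSUM62, Biopython 1.88), and intervals were compared with blastn 2.17.0 at an E-value of 1e-05. Python 3.11.15, numpy 2.4.6, pandas 2.3.3 and matplotlib 3.10.9 were used. The counting functions were tested on planted calls. The members, the 4 words and the comparisons were chosen with earlier results of these data known. The genes named were the members, protein-coding genes of the window, the 5 genes of most like pattern by thresholded summits inside, and nhr genes with peaks in other runs (there were none). The genes nhr-42, nhr-47, nhr-106, nhr-176 and sec-61.G were chosen after their values were seen. No significance test was run, since the lists that gave the values also chose the members.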

Additional observations from a re-analysis of the deposited data

How the results depend on the processing

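Of 34 alternatives, 33 fixed at the outset and 1 added after the values were seen (the median transcript 5′ end, which left 4 of 5 members with a start peak), 26 moved the value by no more than 1.5 times. With 1 replicate left out, and the strongest 261 calls of the other in place of the thresholded set, the window held 6 peaks (replicate 2 alone) or 15 (replicate 1 alone), in place of 10. The members with a start peak were then 3 or 5, and calls covered 54.3% or 41.0% of the run, in place of 35.2%. In the strongest 130 thresholded peaks, 1 peak and 1 member, nhr-179, were left. With pooled calls of rank 1000 or better, the window held 16 calls in place of 25. The fullest window elsewhere on the nuclear chromosomes held 6 in place of 3. Thresholded peaks alone covered 14.5% of the run. With the same coordinates on ce10, not converted between builds, the thresholded list had 10 peaks in the window, the pooled list 24 calls and replicate 2 27. Between the builds, 29 of 29 replicate 1 calls had the same interval, but 0 of 10 thresholded, 0 of 25 pooled and 0 of 28 replicate 2 calls did. The replicate ratio relative to other peaks lay between 2.18 and 2.92. No paired analysis was possible because the series has 1 group. With 2 replicates and unknown depth, a weak call cannot be told from background in any list.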
